A study of Homo sapiens with 8 samples.

Results

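The sites described here are the regions at which the progesterone receptor (PR) was listed in T47D-MTVL cells given 10 nM of the progestin R5020 for 5 min or for 30 min. They were taken from the deposited PR lists as all regions of the 5 min list (22973) and all regions of the 30 min list (25872), 48845 of the 97966 regions in the 5 PR lists of the series. These human breast cancer cells, of luminal type, carry a progestin-responsive reporter driven by the mouse mammary tumour virus promoter. They were the only cell line in every group used here. Before hormone, cells were kept for 48 h in phenol red-free medium with charcoal-treated serum and then for 1 day without serum. Chromatin was fixed in 1% formaldehyde for 10 min. Further PR lists came from cells without hormone (0 min) and from cells given R5020 for 60 and 360 min. Lists of regions with H3K4me1, H3K4me3 and RNA polymerase II came from cells that received no hormone. Each group was 1 library, so differences between times could not be set against replicates and no p-value is given. Intervals beside shares are exact 95% binomial intervals over the sites of 1 library and cover counting error only.

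PR is a nuclear receptor that, once it binds a progestin, attaches to hormone response elements in DNA, largely at enhancers. Monomethylation of histone H3 at lysine 4 (H3K4me1) marks enhancers and the flanks of promoters, trimethylation (H3K4me3) marks active promoters, and RNA polymerase II lies where genes are transcribed. R5020 (promegestone) is a synthetic progestin that is stable in culture. The comparison of 5 with 30 min addresses how far the first PR binding pattern after hormone is the one that is kept, and where the sites that appear later lie.

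The lists give positions on hg19 and no peak height, read number or read depth. A site missing from a list was therefore not shown to be unbound: binding, read depth and peak threshold cannot be told apart as sources of lost and gained sites. Genes were not assigned, because the gene table used here is of another genome build, and no site sequence was read. A site of the 30 min list that shares at least 1 bp with a site of the 5 min list is called retained and one that shares none is called gained. A site of the 5 min list that shares none with the 30 min list is called lost.

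Of the early sites 8756 were no longer listed at 30 min, and 11691 others had been added. Of the 22973 sites at 5 min, 14217 (61.9%, 61.3 to 62.5%) were retained and 8756 (38.1%, 37.5 to 38.7%) were lost. Of the 25872 sites at 30 min, 14181 (54.8%, 54.2 to 55.4%) were retained and 11691 (45.2%, 44.6 to 45.8%) were gained. The 30 min list was longer by 2899 sites. The following steps of the time course exchanged a smaller part of the lists. From 30 to 60 min 73.4% (72.9 to 74.0%) of the earlier sites were kept and 22.4% (21.9 to 23.0%) of the later sites were new. From 60 to 360 min these shares were 70.6% (70.0 to 71.1%) and 27.4% (26.9 to 28.0%). These intervals do not overlap those of the step from 5 to 30 min, but how much 2 libraries of the same time would differ is not known.

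Retained sites mostly matched as 1 site to 1 site, at nearly the same place. In the 30 min list 13933 sites overlapped 1 site of the 5 min list, 243 overlapped 2 and 5 overlapped 3. In the 13542 pairs in which each site had only the other as its partner, the midpoints lay a median of 24 bp apart, and in 10467 pairs (77.3%) at most 50 bp apart. Width in these pairs was nearly equal at the 2 times, with a median of 296 bp at 5 min and 309 bp at 30 min. The median ratio of the 30 min to the 5 min width was 1.04 (quartiles 0.884 and 1.23), and 7583 pairs (56.0%) were wider at 30 min. Pairs in RNA polymerase II regions had a ratio of 1.00 and were wider at 30 min in 50.4% of 1501 cases. Pairs in none of the 3 kinds of chromatin region had a ratio of 1.06 and were wider at 30 min in 58.8% of 5530 cases. The 9773 pairs that were listed again at both 60 and 360 min had a ratio of 1.05. The 1355 pairs listed at neither had a ratio of 0.965.

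Both lost and gained sites were narrow. The median width was 310 bp for retained sites in the 30 min list (quartiles 261 and 387 bp) and 258 bp for gained sites (221 and 314 bp). In the 5 min list it was 296 bp for retained sites (244 and 375 bp) and 236 bp for lost sites (205 and 285 bp). Retained sites were wider than gained sites on each of the 23 chromosomes. In the narrowest quartile of the 30 min list 68.4% (67.2 to 69.5%) of sites were gained, and in the widest quartile 26.1% (25.1 to 27.2%). In the narrowest quartile of the 5 min list 61.6% (60.4 to 62.9%) were lost, and in the widest 17.8% (16.8 to 18.8%). Width is the only measure of peak size in these lists, so the strength of binding could not be compared at equal read depth.

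The broadest retained sites were broad, or made up of neighbouring sites, already at 5 min. The widest at 30 min was chr5:1326371-1327932 (1561 bp), which was 1565 bp wide at 5 min and overlapped H3K4me1, H3K4me3 and RNA polymerase II regions. The site chrX:54773834-54775018 (1184 bp) also overlapped 1 site of the 5 min list, which was 967 bp wide. Each of the other 3 overlapped 2 sites of the 5 min list. At chr19:18808642-18810007 (1365 bp) these had a summed width of 1202 bp, at chr8:124673569-124674920 (1351 bp) 1330 bp, and at chrX:71601030-71602186 (1156 bp) 953 bp. All 5 were listed again at 60 and 360 min and none was listed at 0 min. Of all retained sites of the 30 min list 72.0% were listed at both later times and 0.592% at 0 min. In the widest quartile 92.9% of retained sites were listed at 60 min and 83.8% at 360 min, so this listing is not particular to the 5.

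Single pairs of 1 site to 1 site departed far from equal width. Among these pairs the largest increase was at chr1:109371009-109372064, where a site of 302 bp at 5 min was 1055 bp wide at 30 min and 1000 bp at 60 min. Increases of 611 and 603 bp followed at chr16:53920119-53920911 and chr11:104198632-104199443. The largest decrease was on chromosome 20, where a site of 1007 bp (chr20:45932520-45933527) was replaced by one of 203 bp (chr20:45932547-45932750). That place lay in H3K4me1 and RNA polymerase II regions and was listed at neither 60 nor 360 min. On chromosome 16 a site narrowed from 1163 to 494 bp (chr16:17067698-17068192 at 30 min), and on chromosome 6 one narrowed from 795 to 243 bp (chr6:31794459-31794702). The chromosome 6 site overlapped all 3 kinds of chromatin region and was listed at 60 and 360 min.

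Gained sites were listed later less often than retained sites, and lost sites seldom came back. At 60 min 6805 of the 11691 gained sites (58.2%, 57.3 to 59.1%) and at 360 min 5904 (50.5%, 49.6 to 51.4%) were listed. Over the whole 30 min list these shares were 73.4% and 64.5%, and among retained sites they were 86.0% (85.4 to 86.5%) and 76.0% (75.3 to 76.7%). Of the lost sites, 968 (11.1%, 10.4 to 11.7%) were listed again at 60 min and 810 (9.25%, 8.65 to 9.88%) at 360 min, against 57.4% and 50.6% of all 5 min sites. The 3 classes thus kept their order at both later times, in libraries that the classes did not use. Retained sites are by definition listed at both 5 and 30 min. Their more frequent listing in a further library is therefore no separate support for the classes.

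**Figure D1:**
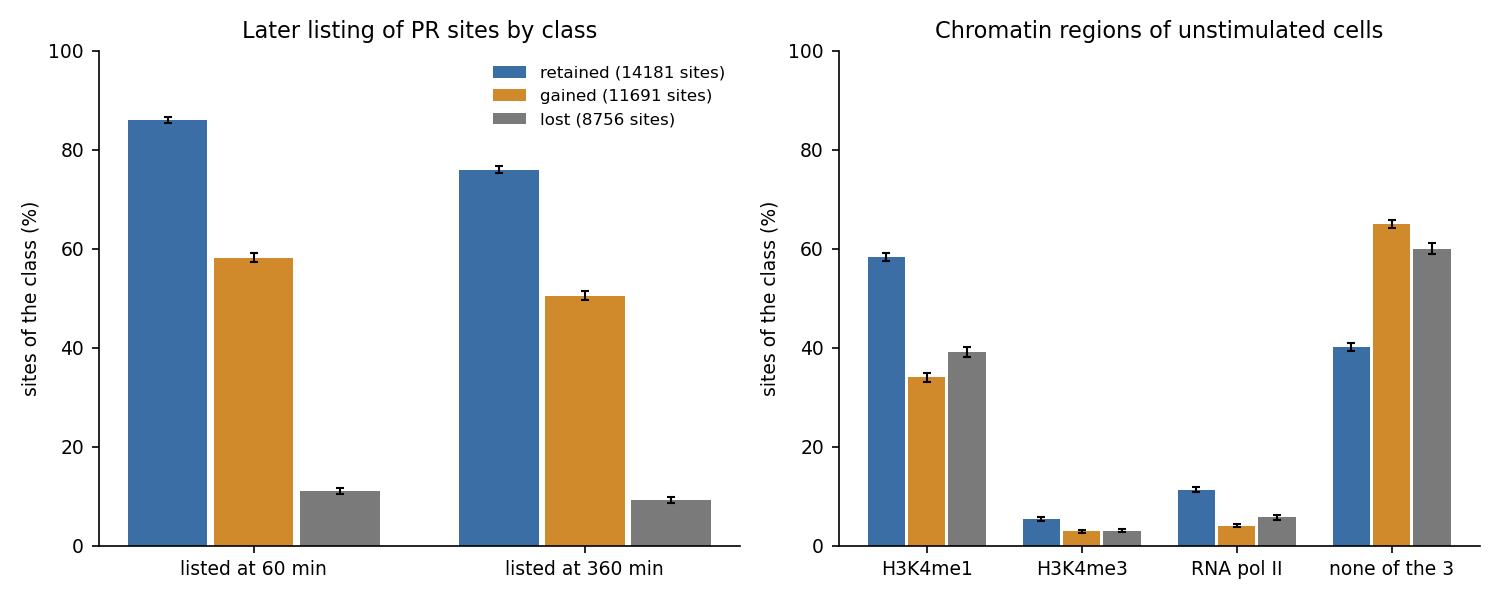
Left, share of retained, gained and lost PR sites that were listed at 60 and 360 min (y axis, % of the sites of the class). Right, share that overlapped H3K4me1, H3K4me3 or RNA polymerase II regions of unstimulated cells, or none of them. Bars are 1 library each and error bars are exact 95% intervals over sites. At 60 min 86.0% of retained, 58.2% of gained and 11.1% of lost sites were listed, and the H3K4me1 shares were 58.4%, 34.0% and 39.2%.

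Gained sites were grouped by their listing at both later times, where absence from a list does not show that binding had ended. Of the 11691 gained sites, 4751 (40.6%, 39.7 to 41.5%) were listed at both 60 and 360 min, 2054 (17.6%) at 60 min without 360 min, 1153 (9.86%) at 360 min without 60 min and 3733 (31.9%, 31.1 to 32.8%) at neither. Gained sites listed at both later times were wider, with a median of 282 bp against 236 bp for those listed at neither time. They were not much richer in H3K4me1, at 35.3% (33.9 to 36.6%) against 32.1% (30.6 to 33.6%). In the widest quartile of the 30 min list 78.4% (76.3 to 80.3%) of gained sites were listed at 60 min, and in the narrowest 42.7% (41.3 to 44.2%). Retained sites of the same quartiles had 92.9% and 62.8%, so the 2 classes differed within each width quartile.

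Lost sites that were listed again at 60 or 360 min lay in H3K4me1 regions more often than lost sites listed at neither time. Among the 401 listed at both later times, 56.9% (51.9 to 61.8%) overlapped H3K4me1 regions and 15.0% (11.6 to 18.8%) held listed polymerase. The H3K4me1 share was 55.9% (51.7 to 60.0%) of the 567 listed at 60 min without 360 min and 51.8% (46.9 to 56.8%) of the 409 listed at 360 min without 60 min, so the 3 returning groups have overlapping intervals. Among the 7379 listed at neither time, the H3K4me1 and polymerase shares were 36.2% (35.1 to 37.3%) and 4.69% (4.22 to 5.20%). The median width was 255 bp for lost sites listed at both later times, 248 bp at 60 min without 360 min, 244 bp at 360 min without 60 min and 234 bp at neither. The list from before hormone held only 844 regions, so only a small share of any class could be listed there. It held 13 lost sites (0.148%), 7 gained sites (0.060%) and 84 retained sites of the 30 min list (0.592%).

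Retained sites lay in H3K4me1 regions far more often than gained or lost sites. H3K4me1 regions of unstimulated cells were overlapped by 8275 of 14181 retained sites (58.4%, 57.5 to 59.2%), by 3973 of 11691 gained sites (34.0%, 33.1 to 34.8%) and by 3430 of 8756 lost sites (39.2%, 38.1 to 40.2%). Over all sites of the lists the shares were 51.0% at 5 min and 47.3% at 30 min. Retained sites had the highest of the 3 shares on all 23 chromosomes. The share of lost sites was above that of gained sites on 22 of the 23, with chromosome 18 as the exception (12.7% and 13.4%).

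Promoter marks and polymerase separated the classes in the same order of retained against the others. RNA polymerase II regions were overlapped by 1606 retained sites (11.3%, 10.8 to 11.9%), 471 gained sites (4.03%, 3.68 to 4.40%) and 500 lost sites (5.71%, 5.23 to 6.22%), against 9.11% of all 5 min and 8.03% of all 30 min sites. H3K4me3 regions were overlapped by 764 retained sites (5.39%, 5.02 to 5.77%), 340 gained sites (2.91%, 2.61 to 3.23%) and 267 lost sites (3.05%, 2.70 to 3.43%), against 4.45% of all 5 min and 4.27% of all 30 min sites. For H3K4me3 the intervals of gained and lost sites overlap. None of the 3 kinds of region was present at 40.2% (39.4 to 41.0%) of retained, 65.0% (64.1 to 65.8%) of gained and 60.0% (59.0 to 61.1%) of lost sites.

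Read the other way round, exchange between 5 and 30 min was lower inside the listed chromatin regions than outside them. In RNA polymerase II regions 23.9% (22.1 to 25.8%) of the 2092 early sites were lost and 22.7% (20.9 to 24.5%) of the 2077 later sites were gained, so the number of sites stayed nearly equal (ratio 0.993). Most of these sites also lay in H3K4me1 regions. With H3K4me1 and polymerase but no H3K4me3, 23.6% (21.3 to 25.9%) of 1333 sites were lost and 18.0% (15.9 to 20.2%) of 1245 were gained. With polymerase alone, 29.1% (20.6 to 38.9%) of 103 were lost and 35.1% (26.4 to 44.6%) of 114 were gained. In H3K4me1 regions without the other 2 kinds, 30.3% (29.4 to 31.2%) of 9540 sites were lost and 34.5% (33.6 to 35.5%) of 10109 were gained. In H3K4me3 regions 26.1% (23.4 to 28.9%) of 1023 sites were lost and 30.8% (28.1 to 33.6%) of 1104 were gained. Outside all 3 kinds of region 47.9% (47.0 to 48.8%) of 10974 sites were lost and 57.1% (56.3 to 58.0%) of 13300 were gained.

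Most of the net growth of the list took place outside the listed chromatin regions. Of the net difference of 2899 sites, 2326 (80.2%) fell in none of the 3 kinds of region and 569 (19.6%) in H3K4me1 regions alone. The 2326 is the balance of 7596 gained and 5257 lost sites, not a set of added sites. Outside the 3 kinds of region lay 47.8% of all 5 min, 51.4% of all 30 min and 65.0% of gained sites. Sites in H3K4me3 regions added 81. Sites with H3K4me1 and polymerase but no H3K4me3 were fewer by 88 at 30 min, with 1333 at 5 min and 1245 at 30 min.

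The difference in H3K4me1 from retained sites was present in each width quartile, and lost and gained sites varied with width in different ways. Among gained sites the H3K4me1 share was nearly flat over width, at 34.4% (33.0 to 35.9%) in the narrowest and 34.2% (31.9 to 36.5%) in the widest quartile of the 30 min list. Retained sites of these quartiles had 54.7% (52.6 to 56.9%) and 61.6% (60.2 to 63.0%). Among lost sites the share climbed with width, from 33.2% (31.6 to 34.8%) in the narrowest to 53.7% (50.6 to 56.8%) in the widest quartile of the 5 min list, against 49.7% (47.6 to 51.8%) and 65.2% (63.8 to 66.6%) for retained sites. Wide lost sites were thus in H3K4me1 regions more often than wide gained sites, while for narrow ones the intervals overlap.

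**Figure D2:**
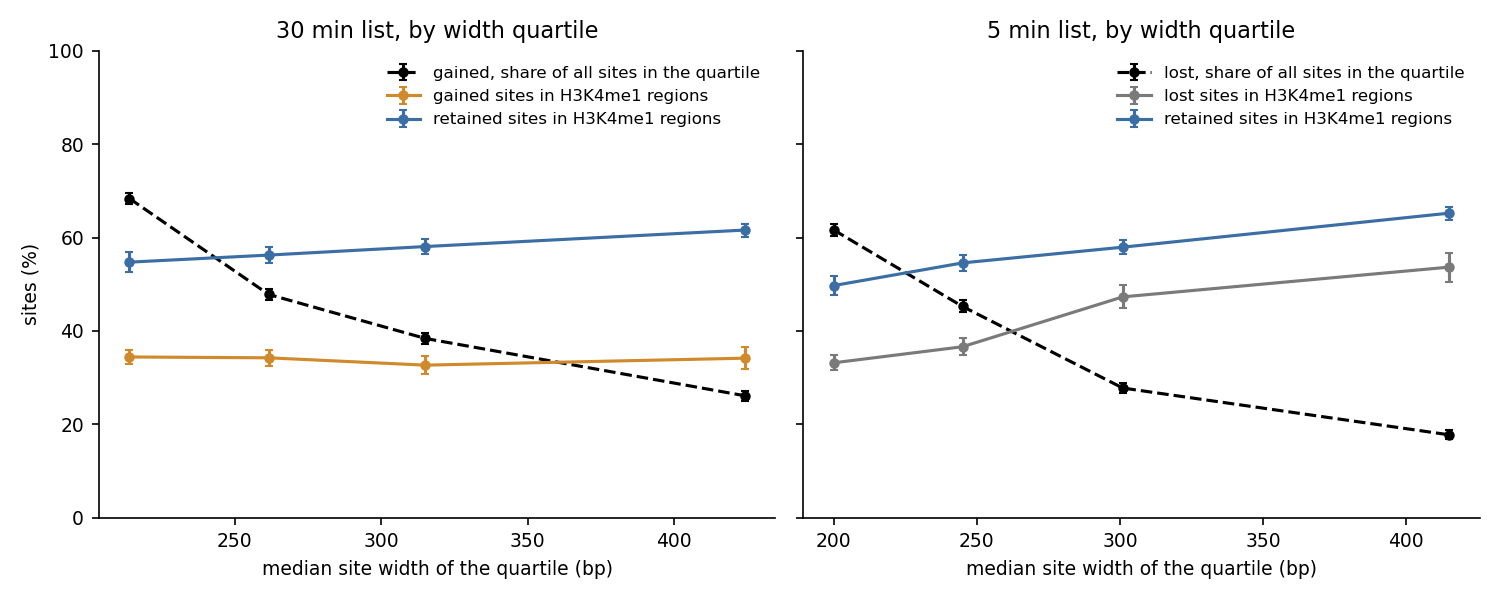
Shares of sites (y axis, %) against the median width of each width quartile (x axis, bp), for the 30 min list on the left and the 5 min list on the right. Dashed black lines give the share of the quartile that was gained or lost, solid lines the share of gained, lost or retained sites in H3K4me1 regions, and error bars exact 95% intervals over sites. The gained line for H3K4me1 runs from 34.4% to 34.2%, and the lost line from 33.2% to 53.7%.

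At the level of whole H3K4me1 regions the pattern was somewhat more stable than at the level of sites. Of 73263 regions, 11392 (15.5%, 15.3 to 15.8%) held a PR site at 5 or 30 min. Among the 8861 regions with a site at 5 min, 6710 (75.7%, 74.8 to 76.6%) also held one at 30 min. Of the 11725 early sites that lay in H3K4me1 regions, 8295 were retained and 29.3% (28.4 to 30.1%) were lost. Over the genome, with sites outside these regions included, 61.9% of early sites were retained. Among the 9241 regions with a site at 30 min, 2531 (27.4%, 26.5 to 28.3%) had held none at 5 min. A region with several sites needs only 1 at each time to count here. In only 190 regions were the sites of 5 and 30 min different ones, with no retained site between them.

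Most gained sites in H3K4me1 regions lay in regions without a PR site at 5 min. Of the 3973 gained sites in H3K4me1 regions, 1349 (34.0%, 32.5 to 35.5%) lay in a region with any site at 5 min, and 1141 (28.7%, 27.3 to 30.2%) in one with a retained site. Of the 3430 lost sites in such regions, 1179 (34.4%, 32.8 to 36.0%) left behind a region that still held a site at 30 min. For comparison, 2949 of the 8275 retained sites in H3K4me1 regions (35.6%, 34.6 to 36.7%) shared theirs with a further retained site. The regions themselves were of like width, with a median of 3872 bp around gained, 3963 bp around lost and 4247 bp around retained sites.

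Gained sites lay farther from retained sites than retained sites lay from each other. The median distance from a gained site to the nearest retained site was 37.1 kb (quartiles 7.99 and 119.9 kb), and from a lost site 41.3 kb (7.78 and 137.2 kb). From a retained site to the next retained site it was 17.2 kb (2.29 and 72.5 kb). Within 10 kb of a retained site were 27.9% (27.1 to 28.7%) of gained sites, 27.6% (26.6 to 28.5%) of lost sites and 42.2% (41.4 to 43.0%) of retained sites. Within 1 kb these shares were 8.22% (7.73 to 8.73%), 9.73% (9.12 to 10.4%) and 17.5% (16.9 to 18.1%). Without neighbours under 1 kb the medians were 45.6 kb for gained, 52.1 kb for lost and 28.5 kb for retained sites. Among the wider 50% of both lists, lost sites were the closer ones, at 61.5 kb against 76.9 kb for gained and 35.8 kb for retained sites, so the order of lost and gained depended on the sites taken.

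**Figure D3:**
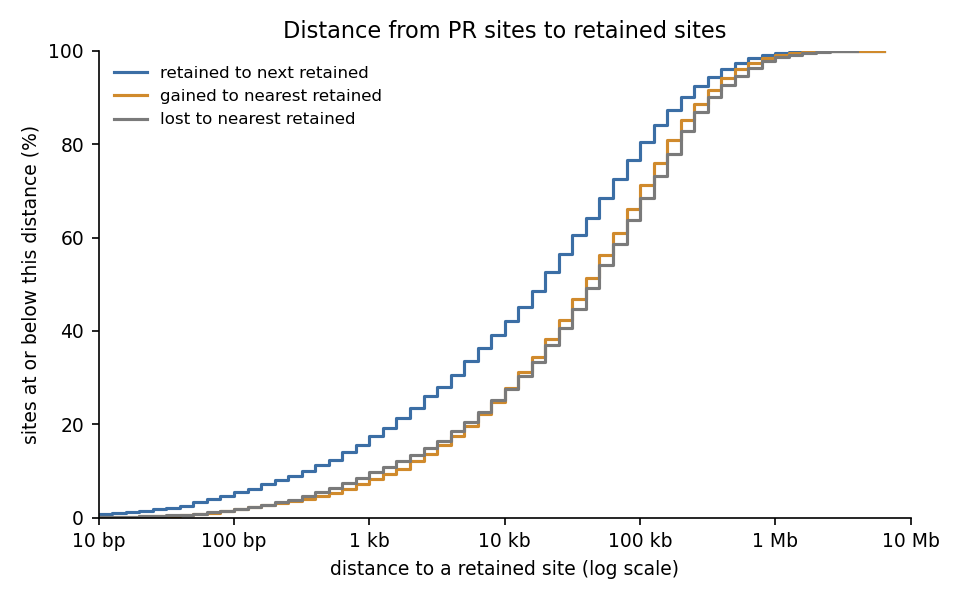
Cumulative share of sites (y axis, %) by distance to a retained site on the same chromosome (x axis, log scale), for gained, lost and retained sites of 1 library per time. The retained curve lies above the other two, with 42.2% of sites within 10 kb against 27.9% of gained and 27.6% of lost sites.

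Gained sites lay farther from each other than from retained sites. The median distance from a gained site to the next gained one was 45.2 kb, and to the nearest lost one 77.2 kb. To the nearest 5 min site of any class it was 22.2 kb, and 312 gained sites (2.67%, 2.38 to 2.98%) had a lost site within 1 kb. These distances also depend on how many sites of each class there are.

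The chromatin around a gained site varied with its distance from retained sites. H3K4me1 regions were overlapped by 64.4% (61.3 to 67.4%) of the 961 gained sites under 1 kb from a retained site, by 47.5% (45.5 to 49.6%) of the 2297 at 1 to 10 kb, by 32.8% (31.5 to 34.1%) of the 5064 at 10 to 100 kb and by 17.8% (16.5 to 19.1%) of the 3369 farther away. Retained sites were above them at each distance, at 75.7%, 69.3%, 54.8% and 35.8% (34.0 to 37.6%). Lost sites had 70.1%, 58.4%, 38.5% and 19.7% (18.2 to 21.2%). Later listing of gained sites varied less with distance: 59.7% (56.6 to 62.8%) of those under 1 kb and 54.9% (53.2 to 56.5%) of those over 100 kb were listed at 60 min. Their median widths were 253 and 256 bp. Of lost sites 18.0% (15.4 to 20.7%) under 1 kb and 8.07% (7.08 to 9.15%) over 100 kb were listed at 60 min.

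The 5 broadest gained sites were listed at both later times, and all but the chromosome 12 site lay outside the listed chromatin. Of all gained sites 65.0% lay outside it, and the H3K4me1 share did not rise or fall with width, so this position is not particular to broad sites. Of all gained sites 40.6% were listed at both later times. The widest was chr6:15257469-15258314 (845 bp), 116.1 kb from the nearest retained and 70.5 kb from the nearest 5 min site. The next were chr8:41738481-41739304 (823 bp) and chr8:102636144-102636953 (809 bp), chr13:31317387-31318182 (795 bp) and chr12:45229391-45230177 (786 bp). All 5 were listed at 60 and 360 min. Only the chromosome 12 site overlapped an H3K4me1 region, and none of the 5 overlapped H3K4me3 or RNA polymerase II regions.

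Of the 5 broadest lost sites 4 lay within 2 kb of a site listed at 30 min. Of all lost sites 12.8% lay within 1 kb and 37.0% within 10 kb of one. The widest, chr7:142825835-142826995 (1160 bp), was 0.34 kb from a 30 min site and in an H3K4me1 region. At chr1:71340096-71341195 (1099 bp) the next 30 min site was 0.061 kb away, and the place was listed again at 60 min. At chr11:37709597-37710636 (1039 bp) it was 0.541 kb away. A further site, chr11:91216861-91217853 (992 bp), had one at 1.54 kb. The last of the 5, chr1:117593536-117594447 (911 bp), was 119.4 kb from any 30 min site, lay in an H3K4me1 region and was listed again at 60 min. None of the 5 was listed at 360 min. Of all lost sites 11.1% were listed at 60 min and 9.25% at 360 min.

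The gained site farthest from any 5 min site was chr21:11082216-11082445, at 3975 kb. The next 2 were chrX:113341951-113342151 (3680 kb) and chrX:113474330-113474660 (3547 kb). The first and the last of these were listed at 60 and 360 min and the other was listed at neither. The chromosome 21 site had high read coverage in the authors' deposited table of nuclease-digested DNA, described below. Its 60 min site of 199 bp had 237 normalized reads in unstimulated cells. The median over gained sites of the 60 min list was 94 reads, at a median width of 313 bp. The reason for this coverage was not tested. The most isolated lost sites were chrX:62730370-62730520 (3389 kb from any 30 min site), chrX:95661483-95661789 (2315 kb) and chr8:138396034-138396229 (2497 kb). None of these 3 was listed again.

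Chromosomes differed more in lost than in gained sites. The share of 30 min sites that were gained ran from 40.7% (35.8 to 45.8%) on chromosome 19 to 52.7% (47.8 to 57.5%) on chromosome 18. The share of 5 min sites that were lost ran from 27.1% (21.8 to 32.8%) on chromosome 22 to 44.5% (42.5 to 46.5%) on chromosome 3. Gained sites outnumbered lost sites on 22 of 23 chromosomes. Chromosome 3 was the exception, with 1011 gained and 1036 lost sites, and its list went from 2329 to 2297 sites.

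**Figure D4:**
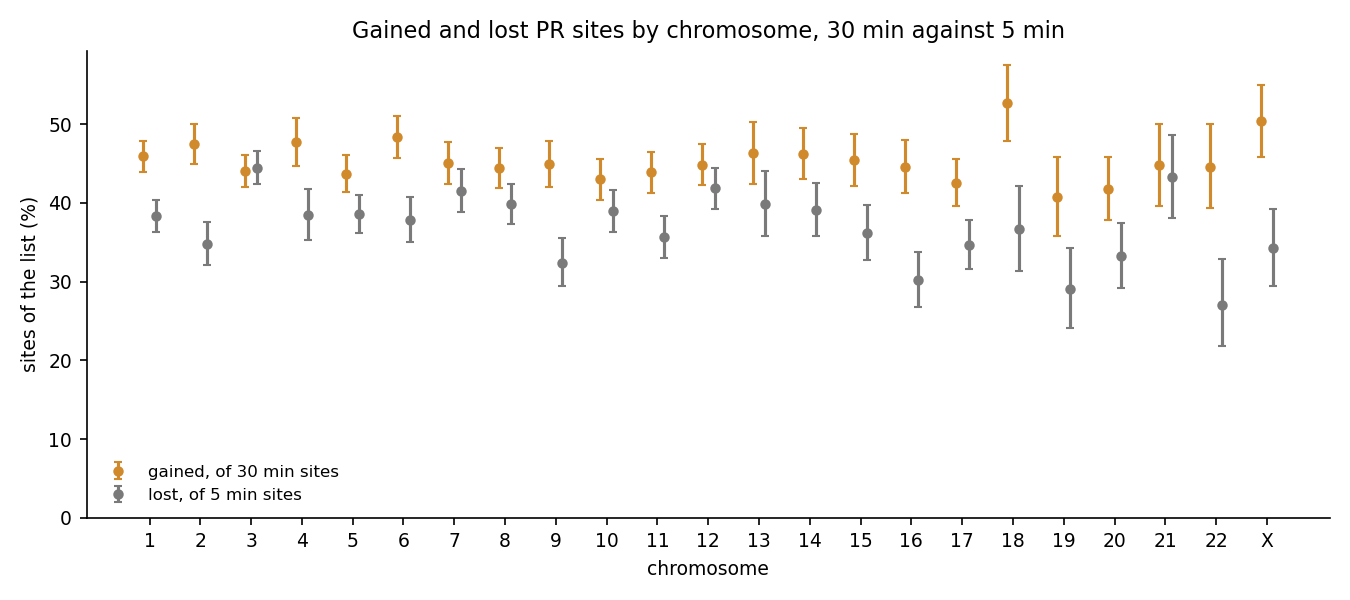
Share of 30 min sites that were gained and of 5 min sites that were lost (y axis, %) on each chromosome (x axis). Points are shares in 1 library and error bars exact 95% intervals over sites. Chromosome 3 has the highest lost share, 44.5%, and chromosome 18 the highest gained share, 52.7%.

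The shrinkage on chromosome 3 came from its part above 90 Mb. Above 90 Mb 785 of 1665 early sites were lost (47.1%, 44.7 to 49.6%) and the list went from 1665 to 1525 sites, a ratio of 0.916. Below 90 Mb 251 of 664 were lost (37.8%, 34.1 to 41.6%), which is close to the 37.4% (36.7 to 38.1%) of all other chromosomes, and the ratio was 1.16. The limit of 90 Mb was chosen after the values were seen. All 3 of the 1 Mb windows with the most lost sites lay above 90 Mb, by a ranking on counts that favours windows with many sites. From 172 to 173 Mb 27 of 40 early sites were lost and 6 gained. From 177 to 178 Mb 25 of 59 were lost and 12 gained, and from 171 to 172 Mb 24 of 51 were lost and 20 gained. These windows are part of the same counts and are no separate support.

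Read density also differed in that stretch. In the authors' deposited table of reads from DNA digested with micrococcal nuclease (MNase), which spares nucleosomes, the 60 min PR sites on chromosome 3 above 90 Mb had a median of 47.1 normalized reads per 100 bp in unstimulated cells. Below 90 Mb the authors' deposited table gave 27.8, and 30.3 over all 60 min sites. When sites in 5 Mb bins with at least 5 sites of the 60 min list were ranked into 4 groups by the median of that density in their bin, the ratio of 30 min to 5 min sites was 1.23 in the lowest group and 1.16, 1.07 and 1.06 in the next 3. The lost share was 35.6% (34.3 to 36.9%) in the lowest and 39.6% (38.3 to 40.8%) in the highest group, and the gained share 47.9% (46.6 to 49.1%) and 43.3% (42.1 to 44.5%). The part of read density or DNA copies in the exchange of sites was not tested.

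The chromatin difference between classes was present in each of those groups. In the group of lowest density H3K4me1 regions held 11.9% of gained and 28.7% of retained sites of the 30 min list, and 19.0% of lost sites of the 5 min list. In the group of highest density they held 59.8% of gained, 83.8% of retained and 57.1% of lost sites. The H3K4me1 shares thus varied more between groups than between classes, and gained sites were above lost ones only in the highest group.

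At the sites still listed at 60 min, the loss of MNase reads after R5020 was smaller at gained than at retained sites. The authors' deposited table gives for each 60 min site a ratio of unstimulated to R5020 reads, a value above 1 meaning fewer reads after hormone. Sites of the 60 min list were assigned here to the first class they overlapped, in the order retained, gained, lost, so the numbers differ from those of the 5 and 30 min sites above. By the authors' deposited table this ratio, where given, had a median of 1.36 at 12258 retained sites (quartiles 1.08 and 1.76), 1.22 at 6716 gained sites (0.99 and 1.51), 1.26 at 909 sites over lost ones and 1.25 at 4550 sites listed at neither 5 nor 30 min. The ratio was above 1 at 81.7% of retained and 73.5% of gained sites in the authors' deposited table.

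Within 1 kind of chromatin the classes were closer, and retained sites were not always the highest. Outside all 3 kinds of region the authors' deposited table gave a median ratio of 1.15 at retained, 1.13 at gained, 1.11 at lost and 1.14 at sites absent at 5 and 30 min. In H3K4me1 regions without the others these medians were 1.44, 1.37, 1.38 and 1.42 in the authors' deposited table. The intervals of retained (1.43 to 1.46) and gained sites (1.35 to 1.39) do not overlap there. Where polymerase was listed the medians were 2.03, 1.94, 2.11 and 2.13 in the authors' deposited table. Intervals overlap there, at 1.98 to 2.07 for retained and 1.90 to 2.34 for lost sites. In the authors' deposited table reads per 100 bp in unstimulated cells had medians of 30.7 at retained and 29.0 at gained sites, and after R5020 22.3 and 23.8. These MNase values come from 1 deposited table without replicates, and they describe only sites of the 60 min list. The sources used here do not give the hormone time of its R5020 cells.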

How the data were processed

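PR and chromatin regions were deposited by the authors as chromosome, start and end on hg19, 1 list per sample, per the file headers, with the build also in the submitters' processing notes. Not given in the sources used here were the aligner, peak caller, threshold, control and depth. Per the file headers, the authors' deposited table holds normalized MNase reads at the 60 min sites, whole numbers handled as a score, and the authors' ratio of unstimulated to R5020 reads. Sites were compared by overlap of at least 1 bp. Distances are between edges on the same chromosome. Shares carry exact (Clopper-Pearson) 95% intervals, and classes were compared as a description without a test. The members, lists and rules were chosen with earlier results of these data known. Named sites are the 5 widest per class, the 3 pairs with the largest width change in each direction, the 3 most isolated gained and lost sites, the 3 windows of 1 Mb with the most gained or lost sites, and the chromosomes with extreme shares. Overlap and distance code was tested on simulated data against a direct search. Tables were handled in pandas 2.3.3 and NumPy 2.4.6 under Python 3.11.15, intervals came from SciPy 1.17.1, and plots from Matplotlib 3.10.9. Alternatives varied the overlap, the sites and regions taken, and the chromosomes.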

Additional observations from a re-analysis of the deposited data

How the results depend on the processing

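Counts of retained, lost and gained sites moved by less than 1.5 times under a reciprocal overlap of 50%, a tolerance of 1 kb, merging within 500 bp and without chromosomes X, Y and M or 3, and lost and gained counts also without chromosome 3 above 90 Mb (added after seeing the data). With the wider 50% of each list set against the whole other list the counts were 8720 retained, 2606 lost (22.8% of those taken) and 4146 gained (32.2%). With the wider 50% of both lists they were 6579, 4859 (42.4%) and 6287 (48.9%), and the median distance of gained sites to retained ones was 76.9 kb. These settings take fewer sites by construction. H3K4me1 shares of gained, lost and retained sites were 33.0%, 37.8% and 56.6% by midpoint, 39.4%, 45.8% and 63.5% within 1 kb of a region, 27.0%, 30.3% and 46.4% with the wider 50% of regions, and 39.2%, 53.6% and 63.2% for the wider 50% of both lists. Without chromosome 3 gained and lost shares were 33.0% and 37.9%. With no site of the other list within 1 kb, a setting added after seeing the data, they were 30.6% and 35.1%. Retained sites exceeded lost sites, and lost sites gained sites, in all 6 settings run for the 3 classes, the reported one included. MNase ratios stayed within the interval of their medians. No paired analysis was possible because each group holds 1 library. Depth is unknown for all lists, so absence from a list cannot be told from a weaker or shallower library, and no leave-one-out setting exists.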

Other observations

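The 1 Mb windows with the most gained sites also held many retained ones, by a ranking on counts that favours windows with many sites. From 85 to 86 Mb on chromosome 16, 26 of 86 sites at 30 min were gained, with 60 retained and 11 lost. From 112 to 113 Mb on chromosome 9 it was 25 of 48, with 23 retained and 6 lost. From 116 to 117 Mb on chromosome 12 it was 23 of 77, with 54 retained and 19 lost. Over the whole 30 min list 45.2% of sites were gained. Of the 2742 windows with a site at 5 or 30 min, 2128 (77.6%) held both gained and lost sites, 85 (3.10%) held gained sites alone and 92 (3.36%) held lost sites alone.

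Single H3K4me1 regions were chosen, after their values were seen, from those with the most gained or the most lost sites. Their opposite directions follow from that choice and are no separate result. The region chr16:85365139-85797385, which spans 432246 bp, held 44 retained, 11 gained and 7 lost sites. At chr4:6760245-6786279 the number of sites went from 2 at 5 min to 7 at 30 min. At chr17:70506202-70527853 and at chr11:129714918-129737994 it went from 5 to 1.

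Sites listed later but at neither 5 nor 30 min also lay farther from retained sites than retained sites lay from each other. The 4551 sites of the 60 min list that were absent at 5 and 30 min lay a median of 38.3 kb from a retained site, and the 6322 such sites of the 360 min list 46.5 kb.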
